A study of Danio rerio with 15 samples.

Results

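V1 interneurons of the zebrafish embryo were compared with dissociated cells of the whole trunk on Affymetrix expression arrays, using 10 of the 15 arrays of the series. The V1 cells, which the labels also name CiA, came from embryos carrying Tg(pax2a:GFP) and were sorted by fluorescence (6 arrays). The trunk cells, a mixture of spinal cord and its surroundings, came from embryos with "None used" as the transgenic line (4 arrays). All embryos were 27 hours past fertilization, had been kept at 28.5 °C for the first 10 hours and at 32 °C after that, and were dissected above the yolk extension. Tissue was dissociated with papain, and the extracted RNA was amplified before labelling. The pronephros region was cut away for the V1 samples only, which separates the groups by dissection as well as by sorting. Because the reporter is driven by pax2a, the sorted population is defined by that promoter's activity and by the gate, and the trunk cells include the spinal neurons, V1 cells among them. The comparison asks what separates the sorted V1 samples from the tissue around them. V1 arrays also carried signal of genes of other cell types. The globin gene hbbe3 averaged 11.54 in V1 arrays, 11.49 in trunk arrays and 5.25 in the all-neuron arrays of the series. The pigment cell gene mitfa averaged 7.91, 6.17 and 4.53 in the same order. Whether such cells entered the gate was not tested.

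V1 interneurons are ventral spinal cord neurons that carry Engrailed 1 and release inhibitory transmitters. They project within the spinal cord on the same side as their cell body, contact motor neurons and other interneurons, and help set the speed of locomotion. Pax2 and Pax8 are paired-box factors of inhibitory spinal interneurons, and Lhx1 and Lhx5 are LIM homeodomain factors shared by several interneuron classes.

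The deposited values are on the log2 scale, so a difference of 1 is a doubling of signal. Of 15502 probe sets tested with limma, 6208 (40.0%) had an adjusted p under 0.05, 3411 of them higher (22.0%) and 2797 lower (18%) in V1 arrays. A log2 difference of 1 or more was reached by 967 higher (6.24%) and 721 lower (4.65%) probe sets, and 4156 (26.8%) had V1 and trunk arrays that did not overlap. The median difference of all probe sets was -0.02. Taking each of 8793 named genes by its brightest probe set, 2047 were higher (23.3%) and 1809 lower (20.6%), and the counts within gene groups below are read against these shares. Adjusted p-values set each mean difference against the spread between arrays within groups, the 5 all-neuron arrays of the series among them. Nothing in the labels says that the numbered replicates came from separate clutches, so how far these p-values hold beyond these samples is not known. The number of arrays limits their precision. The files give no detection call, so the lowest levels may be background, and differences there are of signal only.

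Pearson's r across probe sets was 0.979 to 0.994 between V1 arrays, 0.980 to 0.992 between trunk arrays and 0.917 to 0.954 between the groups. In a principal component analysis of these arrays, component 2 held 8.80% of the variance and split the V1 arrays. V1 arrays 1 to 3 scored 14.2 to 22.2 on it and V1 arrays 4 to 6 scored -22.9 to -13.9. What separates these V1 arrays was not tested. Trunk arrays 1 and 2 stood apart in the control probe set AFFX-Dr-U43284-1_s_at, at 8.02 and 8.16, beside 5.63 and 5.71 in trunk arrays 3 and 4. V1 arrays read 4.98 to 5.59 there and all-neuron arrays 10.16 to 10.76, and the tables used here do not say what this probe set measures. Whether it reads a reporter transcript was not tested, so the files do not settle whether trunk arrays 1 and 2 hold reporter-positive cells, which would go against their label of "None used". Without trunk arrays 1 and 2 there were 2491 higher and 1808 lower probe sets, in a fit that has fewer arrays. Counts without them are given with each gene group.

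The markers en1b, lhx5, hmx3a and penkb were among the genes with the largest differences from trunk. Of other genes tied to the class, en1a was lower (-0.57) and pax8 did not pass (0.26). en1b, an Engrailed 1 gene, read 10.83, 11.27 and 11.49 as the lowest, median and highest of the 6 V1 arrays, against 7.95, 8.17, 8.08 and 8.33 in trunk arrays 1 to 4. Every V1 array lay above every trunk array. The means were 11.25 ± 0.24 (SD, n = 6) and 8.13 ± 0.16 (n = 4), an 8.70-fold difference (log2 difference 3.12, SE 0.13, adjusted p = 5.45e-10).

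lhx5 read 9.32 to 9.88 in V1 arrays, with a median of 9.69, against 6.41, 6.58, 6.68 and 6.70 in trunk arrays (8.46-fold higher, SE 0.12 on the log2 scale, adjusted p = 5.45e-10). hmx3a, an NK-like homeobox gene, read 8.59 to 9.46 in V1 arrays, with a median of 9.12, against 5.66, 5.18, 6.25 and 5.97 in trunk arrays (10.1-fold, adjusted p = 7.03e-09). penkb, a precursor of enkephalin opioid peptides, read 9.16 to 10.36 in V1 arrays, with a median of 9.43, against 6.2, 5.70, 6.42 and 7.31 in trunk arrays (9.06-fold, adjusted p = 5.50e-07). For all of these the groups did not overlap, and penkb had the widest spread among trunk arrays, with array 4 the highest. In all-neuron arrays, given as levels only, en1b read 9.37 to 9.79, lhx5 8.62 to 9.11, hmx3a 8.13 to 8.56 and penkb 8.22 to 9.11. These levels too lay above every trunk array, so a difference from trunk does not by itself set V1 cells apart from other spinal neurons. These markers were chosen with earlier results of these data known, so their levels describe the V1 arrays and are no independent check of the label.

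The reporter's own gene, pax2a, read 7.33, 8.20 and 8.77 as the lowest, median and highest in V1 arrays, against 5.31, 4.97, 5.48 and 5.43 in trunk arrays (7.06-fold higher, log2 difference 2.82, SE 0.21, adjusted p = 7.62e-08). Since the cells were sorted on a pax2a reporter, this difference describes the sort. Its other probe set did not pass (5.39 against 5.22). pax2b, the second zebrafish copy, read 5.53 to 6.89 in V1 arrays, against 3.99, 4.18, 4.72 and 5.29 in trunk arrays (3.06-fold higher, adjusted p = 0.000114), while its other probe set was lower (-0.36). pax8 lay at 4.85 to 5.54 in V1 arrays, against 4.57 to 5.20 in trunk arrays, and did not pass (0.26, adjusted p = 0.233).

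**Figure D1:**
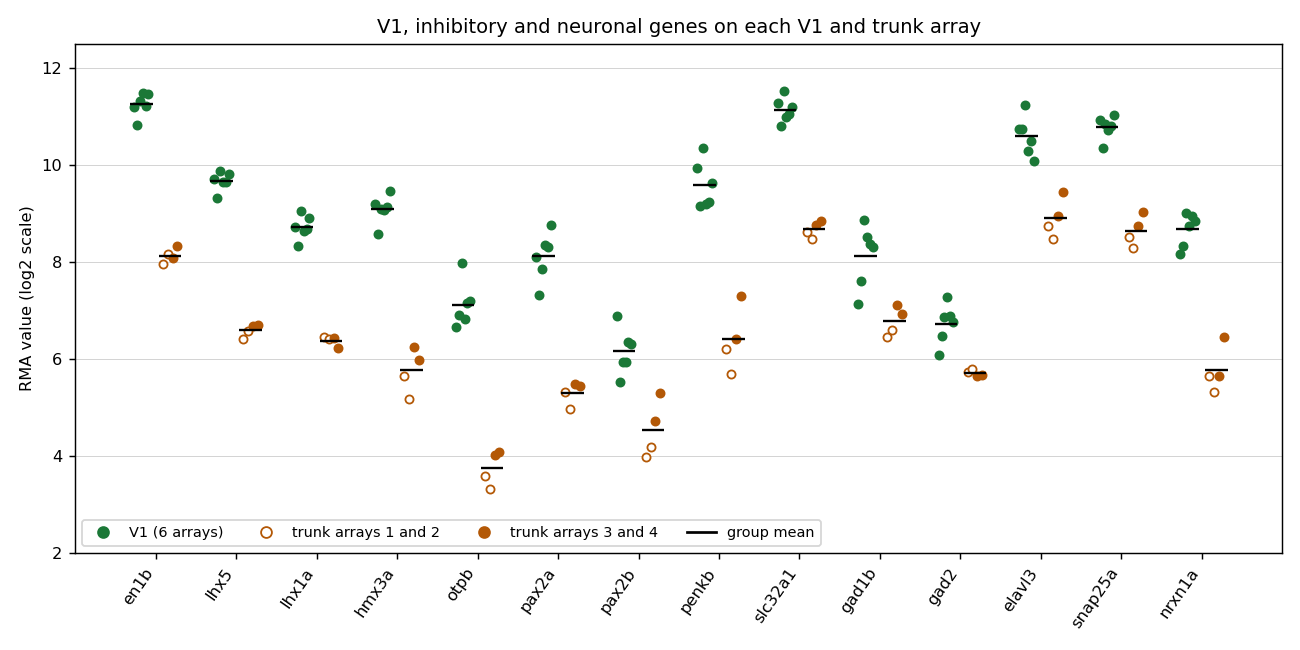
RMA value on the log2 scale (vertical axis) of V1, inhibitory and neuronal genes on each V1 array (green) and each trunk array (orange, open for arrays 1 and 2), with black bars at the group means. All V1 arrays lie above all trunk arrays for each of the genes drawn, with the largest mean difference at otpb (3.37).

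Of 17 measured transcription factors of V1 and inhibitory neurons 10 were higher and 2 lower in V1 arrays, with a median of 0.87 (8 and 1 without trunk arrays 1 and 2). otpb, an Orthopedia homeobox gene, had the largest increase of all probe sets tested (log2 difference 3.37, SE 0.21, adjusted p = 1.66e-08). It read 6.66 to 7.98 in V1 arrays, with a median of 7.03, against 3.59, 3.32, 4.02 and 4.08 in trunk arrays. lhx1a was 5.05-fold higher, at 8.32 to 9.04 in V1 arrays against 6.24 to 6.45 in trunk arrays (adjusted p = 5.38e-09).

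bhlhe22, a basic helix-loop-helix factor, was higher by 1.1, foxd3, a forkhead factor that neural crest also carries, by 0.87, and lhx1b by 0.48. The foxd3 groups overlapped, at 9.34 to 10.10 in V1 arrays against 8.34 to 9.39 in trunk arrays. It read 8.18 to 8.54 in all-neuron arrays, unlike en1b, lhx5 and hmx3a not above trunk arrays. The calls of bhlhe22 (1.07, adjusted p = 0.0831) and lhx1b (0.38, adjusted p = 0.192) ended without trunk arrays 1 and 2. sp8b, a zinc finger factor, fell by 0.87 (adjusted p = 0.0161), with overlapping groups, and its call too ended without those arrays (-0.51, adjusted p = 0.276). en1a, the other Engrailed 1 copy, fell by 0.57, at 2.76 to 3.06 in V1 arrays against 3.33 to 3.77 in trunk arrays, levels near the bottom of the scale. foxp1a (-0.33), foxp2 (-0.23), nr5a2 (-0.05) and mafbb (0.10) did not pass.

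Other genes outside that list stood beside these factors at the top. mab21l1 and mab21l2, paralogs of the Mab-21 family, also separated the groups. mab21l1 read 9.81 to 10.68 in V1 arrays, against 7.02 to 7.99 in trunk arrays (7.31-fold higher), and mab21l2 8.65 to 9.89 against 6.37 to 7.13 (6.15-fold higher). nrxn1a, a presynaptic adhesion molecule, was 7.50-fold higher, and nxph1, a secreted ligand of neurexins, 6.18-fold. nxph1 read 8.05 on V1 array 2 and 8.91 to 9.17 on the other V1 arrays, against 6.00 to 6.52 in trunk arrays. elapor2b was 7.22-fold higher, with trunk arrays 1 and 2 (5.42 and 5.73) below trunk arrays 3 and 4 (6.76 and 7.34). All-neuron arrays also lay above trunk arrays for each of these genes. They read 9.27 to 9.78 for mab21l1, 8.50 to 9.26 for mab21l2, 7.47 to 8.52 for nrxn1a, 8.14 to 8.85 for nxph1 and 8.35 to 9.06 for elapor2b.

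Inhibitory transmission genes were higher, led by packaging. slc32a1, which loads GABA and glycine into vesicles, read 10.81, 11.13 and 11.53 as lowest, median and highest in V1 arrays, against 8.61, 8.48, 8.76 and 8.86 in trunk arrays (5.54-fold higher, log2 difference 2.47, SE 0.13, adjusted p = 3.21e-09). gad1b, which makes GABA from glutamate, read 7.13 to 8.87 in V1 arrays, with a median of 8.34, against 6.46, 6.61, 7.12 and 6.92 in trunk arrays (2.56-fold, adjusted p = 0.000883). gad2, its partner enzyme, read 6.08 to 7.27 in V1 arrays, against 5.65 to 5.79 in trunk arrays (2.02-fold, adjusted p = 0.000466).

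V1 array 1 was the lowest V1 array for both gad genes, and for gad1b it was level with trunk array 3, at 7.13 against 7.12. abat, which breaks GABA down, read 7.45 to 7.96 in V1 arrays but 6.40, 6.50, 7.68 and 8.45 in trunk arrays 1 to 4, and did not pass (0.46, adjusted p = 0.343). Of 4 measured genes of this list 3 were thus higher and 0 lower (median 1.19), the same counts as without trunk arrays 1 and 2. In all-neuron arrays of the same series, given as levels only, gad1b read 9.08 to 9.74, gad2 7.97 to 8.77 and slc32a1 10.61 to 10.95.

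slc18a3a, the vesicular acetylcholine transporter of motor neurons, was also higher, by 2.21-fold (adjusted p = 1.57e-06), at 10.66 to 11.15 in V1 arrays against 9.40 to 9.94 in trunk arrays. ache, which breaks acetylcholine down, did not pass (-0.08), and the counts of these 2 genes were the same without trunk arrays 1 and 2. Other listed genes of excitatory and cholinergic transmission were not analysed here.

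V1 arrays carried more transcript of most general neuronal genes than trunk arrays. Of 37 postmitotic neuron genes 29 were higher and 1 lower, with a median of 1.3 (26 and 1 without trunk arrays 1 and 2). The list mean was 8.51 to 8.86 in V1 arrays, against 7.61, 7.44, 7.65 and 7.81 in trunk arrays, and 8.84 to 9.27 in all-neuron arrays. elavl3, an RNA-binding protein of new neurons, read 10.09 to 11.23 in V1 arrays, against 8.49 to 9.44 in trunk arrays (3.23-fold higher, adjusted p = 3.34e-05). Of its other 3 probe sets 2 were also higher (1.02 and 0.98) and 1 did not pass (0.26). The probe set that did not pass read 7.51 and 7.11 in trunk arrays 1 and 2 but 4.62 and 5.20 in trunk arrays 3 and 4. It read 6.07 to 6.49 in V1 arrays and 9.03 to 9.56 in all-neuron arrays. The control probe set AFFX-Dr-U43284-1_s_at split the trunk arrays in the same way, and the cause of the split was not tested.

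nova2, a neuronal splicing regulator, was 4.54-fold higher, the neuronal endosomal protein gene nsg2 4.3-fold, and atp1a3a, a neuronal sodium pump subunit, 4.24-fold. For nova2, other probe sets did not pass (0.09 and 0.04). nsg2 had the tightest groups of these, at 10.92 to 11.23 in V1 arrays against 8.94 to 9.09 in trunk arrays. gng3, a G protein subunit of neurons, was 2.74-fold higher. thy1 was the exception, lower by 2.22-fold (adjusted p = 0.00036), at 6.1 to 6.91 in V1 arrays against 7.40 to 8.15 in trunk arrays.

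The machinery of synaptic vesicle release was higher too. Of 21 measured genes of vesicle release and synapse organization 16 were higher and 1 lower (median 1.39), the same counts without trunk arrays 1 and 2. The list mean was 8.04 to 8.36 in V1 arrays, 6.95 to 7.29 in trunk arrays and 8.31 to 8.72 in all-neuron arrays. syt1a, the calcium sensor of vesicle fusion, was 5.27-fold higher, at 9.17 to 9.74 in V1 arrays against 6.68 to 7.47 in trunk arrays. rab3c, a vesicle GTPase, was 4.47-fold higher and snap25a, a membrane fusion protein of nerve endings, 4.39-fold. lin7a, a scaffold protein, was lower (-1.40), at 6.30 to 6.74 in V1 arrays against 7.55 to 8.55 in trunk arrays.

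Of 42 tubulin, kinesin and dynein genes of microtubules and axonal transport 21 were higher, 2 lower and 19 did not pass (median 0.47, and 14 and 1 without trunk arrays 1 and 2). Under cyclic loess the counts were 16 and 3 and the median 0.17. kif5aa, a kinesin heavy chain of axonal transport, was 3.66-fold higher, and the tubulin genes tubb2 and tuba2 were 3.30-fold and 3.22-fold higher, with another tuba2 probe set not passing (0.08). tuba8l2 was 5.63-fold lower, at 6.51 to 7.36 in V1 arrays against 9.0 to 9.79 in trunk arrays. dync1h1, the cytoplasmic dynein heavy chain, was lower by 0.26 at levels under 5 on every array, a call that ended without those arrays (-0.23, adjusted p = 0.0775).

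**Figure D2:**
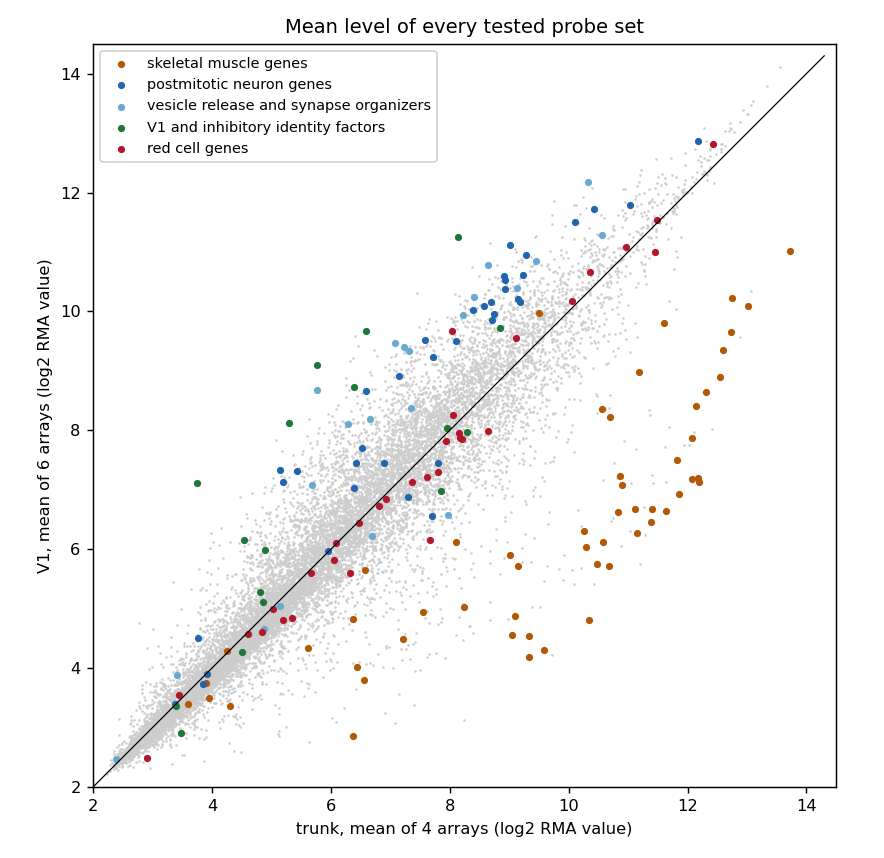
Mean RMA value over the 6 V1 arrays (vertical axis) against that over the 4 trunk arrays (horizontal axis), both on the log2 scale, for every tested probe set (grey) and for the members of some gene lists (coloured). Neuronal and V1 genes lie mostly above the line of equal levels, skeletal muscle genes far below it, and red cell genes close to it.

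The shares of ion channel genes called in each direction were near those of all named genes. Of 11 measured ion channel genes, kcnh2a, an ERG-type potassium channel (1.73), and scn8aa, a sodium channel of axons (1.41), were higher, while kcnk5a (-0.42) and the calcium channel gene cacna1c (-0.38) were lower. The kcnk5a call ended without trunk arrays 1 and 2 (-0.32, adjusted p = 0.0506). Their median was 0.07, and without those arrays 2 were higher and 1 lower. The cacna1c call ended under equal ribosomal protein means (adjusted p = 0.0727).

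Of 17 receptor genes 6 were higher and 3 lower, with a median of -0.06 (5 and 3 without those arrays), shares near those of all named genes for the lower ones. grin1a, the obligatory NMDA receptor subunit, was 4.27-fold higher, at 9.0 to 10.03 in V1 arrays against 6.83 to 7.56 in trunk arrays. Its other probe set did not pass (0.16). glra3, a glycine receptor subunit, was 2.32-fold higher and chrnb3a, a neuronal nicotinic subunit, 2.12-fold.

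glra4a, another glycine receptor subunit, went the opposite way, at 5.34, 5.62 and 6.2 as lowest, median and highest in V1 arrays, against 8.44, 8.48, 7.65 and 7.73 in trunk arrays (5.31-fold lower, log2 difference -2.41, SE 0.19, adjusted p = 1.61e-07). No V1 array reached the lowest trunk array. grik1a (-0.48) and the muscarinic receptor gene chrm2a (-0.36) were lower at levels under 5.5 in both groups.

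Beside penkb, the processing genes scg5 (4.12-fold) and cpe (3.42-fold) were higher, and 6 of 14 measured peptide and granin genes were higher in all (median 0.25). nppc, a natriuretic peptide gene (-0.94), scg2a, a secretogranin (-0.92), and sst1.1, a somatostatin gene (-0.86), were lower. The nppc call ended without trunk arrays 1 and 2 (-0.83, adjusted p = 0.151), which left 6 higher and 2 lower. Within the V1 arrays scg2a had a wide spread, at 6.75 to 8.54, against 8.41 to 8.94 in trunk arrays.

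Axon guidance and cell recognition genes had a median of -0.03, with 17 of 50 higher and 4 lower (11 and 2 without trunk arrays 1 and 2). robo2, a receptor for Slit repellents, was 2.65-fold higher, at 7.42 to 8.38 in V1 arrays against 6.34 to 6.8 in trunk arrays. cdh4, R-cadherin, was 2.24-fold higher and efna5a, an ephrin, 2.21-fold, although another efna5a probe set was lower (-0.33). The lower genes were cdh11 (-0.97), rgma (-0.72), sema3e (-0.54) and efna2a (-0.25). The calls of sema3e (-0.24, adjusted p = 0.251) and efna2a (-0.22, adjusted p = 0.0794) ended without those arrays.

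Lists of other spinal neuron classes differed in their calls, and in some of them most genes did not pass. Of 9 V2 interneuron and Kolmer-Agduhr cell genes 0 were higher and 5 lower, with a median of -0.38 (0 and 4 without trunk arrays 1 and 2). sox1a and gata3, factors of V2b and Kolmer-Agduhr cells, fell by 1.01 each, at 4.02 to 5.16 against 5.32 to 5.79 for sox1a and at 4.01 to 4.52 against 4.81 to 5.66 for gata3. The others were sst1.1, vsx1 (-0.52) and foxn4 (-0.38), of which vsx1 lost its call without those arrays (adjusted p = 0.143). The vsx1 call also ended under cyclic loess (adjusted p = 0.0788) and equal ribosomal protein means (0.0647). It ended as well without V1 array 1, 5 or 6 or trunk array 1, 2 or 3 (0.0536 to 0.107). In all-neuron arrays, given as levels only, gata3 read 7.20 to 7.98 and sox1a 7.73 to 8.50. Another foxn4 probe set did not pass (-0.13), and the foxn4 call ended under equal ribosomal protein means (adjusted p = 0.0555).

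Some motor neuron genes, by contrast, were higher in V1 arrays than in trunk arrays. isl1a, a LIM homeobox gene of motor and sensory neurons, read 9.58, 10.13 and 10.53 as lowest, median and highest in V1 arrays, against 8.22, 8.05, 8.37 and 8.31 in trunk arrays (3.63-fold higher, SE 0.16 on the log2 scale, adjusted p = 3.22e-07). isl2a, which motor and Rohon-Beard neurons carry, read 7.86 to 9.0 in V1 arrays, against 6.87 to 7.28 in trunk arrays (2.58-fold, adjusted p = 7.06e-05). With slc18a3a these were the 3 higher genes of 7 measured, and olig2, a factor of motor neuron progenitors, was the lower one (-1.40). The counts were the same without trunk arrays 1 and 2. In all-neuron arrays isl1a read 10.40 to 10.80 and isl2a 9.12 to 10.08. The part that other neurons in the gate may have in these levels was not tested.

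Of 8 Rohon-Beard and sensory neuron genes, the chemokine receptor gene cxcr4b was higher (1.46) and runx3, a factor of sensory neurons, lower (-0.95). The other 6 did not pass. cxcr4b ran from 5.22 to 7.11 within the V1 arrays, and its lowest V1 array lay below the highest trunk array, at 5.26. Both counts were the same without trunk arrays 1 and 2. Of 17 genes of V0, V3 and dorsal interneurons dmrt3a was higher (0.87) and ptf1a (-0.30) and nkx2.2a (-0.27) lower, with a median of -0.01. In this list 14 genes did not pass. For this list and the Rohon-Beard list the shares of higher and lower genes were below those of all named genes (23.3% and 20.6%). The calls of dmrt3a (adjusted p = 0.0942), ptf1a (0.25) and nkx2.2a (0.329) all ended without trunk arrays 1 and 2, where the list had 0 higher and 1 lower gene, another member. The ptf1a and nkx2.2a calls also ended with only V1 and trunk arrays in the fit (adjusted p = 0.069 and 0.0735). So they did with the replicate block (0.0896 and 0.137), equal ribosomal protein means (0.0679 and 0.0813) and most single-array omissions.

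Most genes of neural progenitors and of dividing cells did not pass the test. Of 45 progenitor genes 3 were higher and 8 lower, with a median of -0.13 (3 and 1 without trunk arrays 1 and 2). Both shares were below those of all named genes (23.3% higher and 20.6% lower). irx5a (1.36), hes6 (0.83) and msx1b (0.78), a set of homeobox and Hes-family factors, were the higher ones. Besides olig2, dbx1a (-1.26) and sox19b (-1.21) were the lowest, and both calls ended without those arrays (adjusted p = 0.0788 and 0.431). sox19b read 6.81 and 6.98 in trunk arrays 1 and 2 but 5.05 and 5.27 in trunk arrays 3 and 4, beside 4.69 to 5.05 in V1 arrays and 6.23 to 7.76 in all-neuron arrays. The widely used progenitor markers sox2 (0.19), sox3 (0.05) and gfap (-0.43) did not pass. The list mean differed within the V1 group, at 6.67, 6.89 and 6.99 in V1 arrays 1 to 3 but 6.27, 6.46 and 6.39 in V1 arrays 4 to 6. Trunk arrays read 6.69 to 6.86, so the group difference joins unlike V1 arrays.

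Of 22 proneural and Delta genes 5 were higher and 2 lower (median 0.01, and 4 and 2 without trunk arrays 1 and 2). The share of higher genes was near that of all named genes (23.3%), and the share of lower genes was below theirs (20.6%). neurod1, a neuronal differentiation factor, was 2.81-fold higher, at 6.55 to 8.29 in V1 arrays against 5.69 to 5.89 in trunk arrays. The Notch ligand gene jag2b was 2.32-fold higher, and dlb (0.60), neurod6a (0.43) and hes6 were higher by less. dlb lost its call without those arrays (0.34, adjusted p = 0.398), and neurod6a under equal ribosomal protein means (adjusted p = 0.0652). dld (-0.69) and neurod4 (-0.65) were lower.

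Of 74 genes of DNA replication and mitosis 10 were lower, led by ccnd1 (-0.72), ccne1 (-0.69) and cdca7a (-0.66), and kif20a was higher (0.50). Both shares were below those of all named genes (23.3% higher and 20.6% lower). The median of the list was -0.18, and without trunk arrays 1 and 2 the counts were 3 lower and 1 higher. Of the named genes the calls of ccnd1 (adjusted p = 0.0543), cdca7a (0.149) and kif20a (0.103) ended there. The ccne1 call ended under cyclic loess (adjusted p = 0.0709), with the replicate block (0.125) and without any 1 of 6 single arrays (up to 0.133). The other ccnd1 and kif20a probe sets did not pass. The list mean was 7.52, 7.72 and 7.66 in V1 arrays 1 to 3, within the trunk range of 7.44 to 7.76, but 7.01, 7.23 and 7.26 in V1 arrays 4 to 6.

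**Figure D3:**
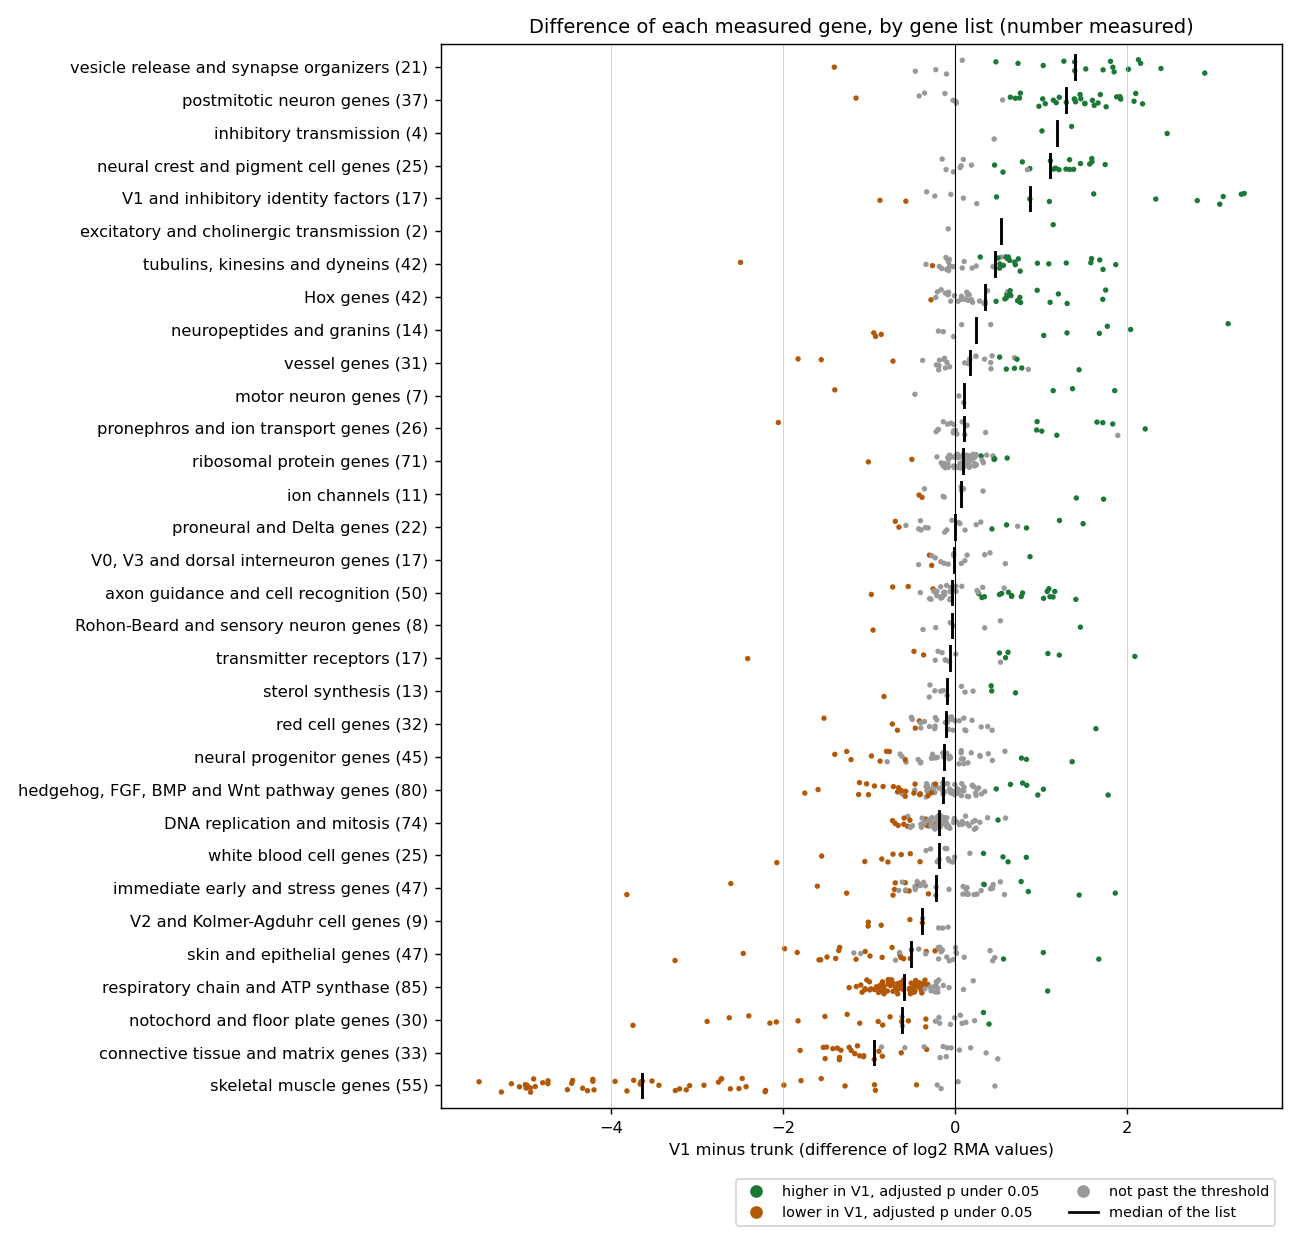
Difference of V1 minus trunk on the log2 scale (horizontal axis) for each measured gene of each list (rows, number measured in brackets), with a black bar at the list's median. Muscle, matrix, notochord and respiratory chain genes lie to the left and neuronal, synaptic and neural crest genes to the right, while most other lists centre near 0.

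Skeletal muscle, which makes up much of the trunk, had the lists' largest median difference. Of 55 measured muscle genes 51 were lower in V1 arrays and 0 higher, with a median of -3.63 (49 and 0 without trunk arrays 1 and 2). The list mean was 6.11 to 6.92 in V1 arrays, with a median of 6.33, against 9.72, 9.80, 9.62 and 9.63 in trunk arrays. V1 array 1 was the highest of the V1 arrays. In bulk RNA, fewer cells of a type and less RNA per cell cannot be told apart, here or for any other tissue.

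myoz1b, which anchors proteins at the sarcomere's Z-disc, read 4.47, 4.80 and 5.22 as lowest, median and highest in V1 arrays, against 10.68, 10.53, 10.07 and 10.09 in trunk arrays (46.3-fold lower, log2 difference -5.53, SE 0.35, adjusted p = 1.95e-08). chrne, a subunit of the muscle acetylcholine receptor, was 38.7-fold lower, at 3.91 to 5.14 against 9.36 to 10.00. cacng1a, a subunit of the muscle calcium channel, was 35.7-fold lower, at 3.60 to 5.25 against 9.06 to 9.69. The V1 levels of these genes lay below the median of all values, 5.52.

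Other genes of fast muscle fell by similar amounts from higher levels. pvalb2, a calcium-binding parvalbumin, was 33.4-fold lower, and the myosin light chain genes myl1 and mylpfa were 31.7-fold and 29.8-fold lower. slc25a4, the mitochondrial ADP/ATP carrier of muscle, read 5.75 to 6.51 in V1 arrays, against 10.65 to 11.78 in trunk arrays (33.1-fold lower). The thick filament gene mybpc2b and the troponin genes tnnt3a, tnnt3b and tnni2a.4 were 30.6-fold to 32.4-fold lower, and klhl41b, a protein of the sarcomere, 31.5-fold.

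Abundant muscle genes kept high signal in V1 arrays. actc1b, an alpha-actin, read 10.27 to 11.55 in V1 arrays, against 13.50 to 14.13 in trunk arrays (6.55-fold lower, with 2 other probe sets that did not pass), and ckma, muscle creatine kinase, 8.40 to 9.52 against 12.49 to 12.67 (12.6-fold lower). myod1, a master regulator of muscle, read 3.49 to 4.19 in V1 arrays against 6.18 to 7.15 in trunk arrays.

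Notochord and matrix genes were lower by less. Of 30 notochord and floor plate genes 17 were lower and 2 higher, with a median of -0.61 (13 and 3 without trunk arrays 1 and 2). col9a1b, a type IX collagen chain, read 3.31 to 5.83 in V1 arrays, against 8.97, 7.95, 8.25 and 7.71 in trunk arrays (13.4-fold lower, adjusted p = 1.45e-05). col9a3 was 7.36-fold and col9a2 6.16-fold lower, and col2a1a, the type II collagen of notochord sheath and cartilage, 4.44-fold lower. tbxta, the Brachyury factor of notochord, was lower by 0.89 at low levels, a call that ended without trunk arrays 1 and 2 (-0.75, adjusted p = 0.0777). The higher genes, copa (0.40) and copb1 (0.33), encode coat proteins of secretory vesicles in all cells. Under cyclic loess neither was called (0.11 and 0.07, adjusted p = 0.233 and 0.603), nor under equal ribosomal protein means (0.0538 and 0.153), and the copb1 call also ended with the replicate block (0.0547), array weights (0.0568) and 6 single-array omissions. Their groups overlapped, and another copa probe set did not pass (-0.02).

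Of 33 connective tissue and matrix genes 21 were lower and 0 higher, with a median of -0.94 (15 and 0 without trunk arrays 1 and 2). fn1b, a fibronectin, was 3.48-fold lower. The type I collagen genes kept high signal in V1 arrays, col1a1a at 9.19 to 10.79 against 11.44 to 11.83 (2.85-fold lower) and col1a2 at 8.28 to 10.29 against 10.24 to 10.93 (2.89-fold lower). Both lost their calls without those arrays, with adjusted p = 0.0627 and 0.0722, although their differences were no smaller (-1.56 and -1.68).

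Skin and epithelial genes had a median of -0.50, with 22 of 47 lower and 3 higher (11 and 3 without trunk arrays 1 and 2). The cell envelope and keratin genes anxa1c (-3.25), ppl (-2.46), krt5 (-1.98) and krt4 (-1.83) were lower. The calls of krt5 (-1.48, adjusted p = 0.0935) and krt4 (-1.47, adjusted p = 0.096) ended without those arrays. The higher ones were elf3, an epithelial Ets factor, at 6.08 to 8.01 against 5.23 to 5.70 (3.19-fold), krt15 (2.04-fold) and cdh1, E-cadherin (1.48-fold). The cdh1 groups overlapped, and its call ended under cyclic loess (adjusted p = 0.139), equal ribosomal protein means (0.107), the replicate block (0.0781) and without V1 array 5 or trunk array 2, 3 or 4 (0.0524 to 0.0922).

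Most red cell and vessel genes did not pass the test. hbbe3, an embryonic beta globin, read 10.71, 11.65 and 12.28 as lowest, median and highest in V1 arrays, against 11.65, 11.31, 11.08 and 11.92 in trunk arrays, and did not pass (0.05, SE 0.29, adjusted p = 0.905). hbae3, an embryonic alpha globin, read 12.24 to 13.35 in V1 arrays, against 12.07 to 12.73 in trunk arrays (0.38, adjusted p = 0.252). The groups overlapped for both, and V1 arrays 2 and 6 were the highest for both. slc4a1a, the red cell anion exchanger (-0.29), and alas2, the haem synthesis enzyme of red cells (-0.07), did not pass either.

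Of 32 red cell genes 1 was higher and 5 lower, with a median of -0.10 (1 and 4 without trunk arrays 1 and 2). Both shares were below those of all named genes (23.3% higher and 20.6% lower). The list mean was 6.92 to 7.84 in V1 arrays, against 7.16 to 7.61 in trunk arrays, and 5.82 to 5.92 in all-neuron arrays. The lower genes were sptb, erythroid beta spectrin (-1.52), alad (-0.73) and glrx5 (-0.67) of haem synthesis, mibp2 (-0.46) and ank1a (-0.41). Only the mibp2 call ended without those arrays (-0.25, adjusted p = 0.206). dmtn, a membrane skeleton protein, was higher (3.12-fold), and it read 9.59 to 10.15 in all-neuron arrays, where the globin gene hbbe3 read 4.77 to 5.65.

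Of 31 vessel genes 6 were higher and 3 lower, with a median of 0.17 (3 and 4 without trunk arrays 1 and 2). Both shares of the 6 and 3 genes were below those of all named genes (23.3% higher and 20.6% lower). kdrl, the VEGF receptor of endothelium, read 6.84 to 8.39 in V1 arrays, against 6.48 to 7.78 in trunk arrays, and did not pass (0.42), nor did fli1 (0.25). In all-neuron arrays, given as levels only, kdrl read 4.13 to 5.48 and fli1 3.34 to 3.79. The list mean was 6.03 to 6.77 in V1 arrays, 6.03 to 6.37 in trunk arrays and 5.19 to 5.29 in all-neuron arrays. aqp8a.1, a water channel of vessels, was 2.72-fold higher, at 7.58 to 9.83 against 6.96 to 8.14, s1pr1 1.72-fold and hey2 1.65-fold. sulf1 (-1.82), mef2ca (-1.55) and crip2 (-0.72) were the lower ones, and mef2ca is also in the muscle list and sulf1 in the notochord list. Other probe sets of s1pr1 (0.29) and sulf1 (-0.24) did not pass.

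Of 25 white blood cell genes 4 were higher and 9 lower, with a median of -0.18 (1 and 6 without trunk arrays 1 and 2). ctss2.1 (-2.07), lcp1 (-1.55) and arpc1b (-1.05) were the lowest, and the first of these spread over trunk arrays, at 7.52, 7.05, 5.23 and 6.54. The myeloid factor gene spi1b (-0.09) and mpx, the neutrophil peroxidase (-0.33), did not pass, with another mpx probe set lower (-0.39). The higher genes were ctsc (0.83), ctsz (0.62), csf1ra (0.56) and grna (0.33), and the calls of ctsc (adjusted p = 0.0502), ctsz (0.0863) and grna (0.163) ended without those arrays. The ctsz call also ended under equal ribosomal protein means (adjusted p = 0.0989), the replicate block (0.082) and most single-array omissions.

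Many neural crest and pigment cell genes were higher in V1 arrays than in trunk arrays. Of 25 measured genes 17 were higher and 0 lower, with a median of 1.11 (15 and 0 without trunk arrays 1 and 2, median 0.90). The list mean was 7.22 to 7.77 in V1 arrays, with a median of 7.61, against 6.89, 6.46, 6.75 and 6.73 in trunk arrays, and 5.82 to 6.19 in all-neuron arrays. V1 array 3 had the lowest V1 level of all genes named here but crestin.

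mitfa, the master regulator of melanophores, read 7.18, 7.98 and 8.53 as lowest, median and highest in V1 arrays, against 6.68, 5.58, 6.47 and 5.92 in trunk arrays (3.36-fold higher, log2 difference 1.75, SE 0.28, adjusted p = 0.000113). gch2, of pteridine pigment synthesis, and gart, of purine synthesis, were 3.02-fold higher each, and for both the groups did not overlap. dct, a melanin synthesis enzyme, was 2.32-fold higher, at 9.19 to 10.62 against 7.87 to 9.54. The crest genes sox10 (2.61-fold) and crestin (2.16-fold) had overlapping groups and lost their calls without trunk arrays 1 and 2 (adjusted p = 0.0892 and 0.393). Whether crest or pigment cells entered the gate was not tested.

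The pronephros region, whose cells carry pax2a, was removed for V1 samples only. Of 26 measured genes of pronephros and ion transport 8 were higher, 1 lower and 17 did not pass, with a median of 0.10 (4 higher and 1 lower without trunk arrays 1 and 2). The share of higher genes was a little above that of all named genes (23.3%), and the share of lower genes was below theirs (20.6%). ret, the GDNF receptor of kidney and of some neurons, was 4.64-fold higher, at 8.84 to 9.51 against 6.67 to 7.47, and read 8.79 to 9.10 in all-neuron arrays. aqp3a, a water channel of epithelia, read 8.33, 9.55 and 10.00 as lowest, median and highest in V1 arrays, against 8.40, 7.37, 7.13 and 7.29 in trunk arrays (3.57-fold higher, adjusted p = 0.00147).

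cdh17, the cadherin of the pronephric duct, read 6.37, 7.42 and 8.24 as lowest, median and highest in V1 arrays, against 5.44, 5.68, 6.48 and 5.12 in trunk arrays (3.30-fold higher, adjusted p = 0.00453, and 0.0569 without trunk arrays 1 and 2). The anion exchanger gene slc4a2a was 3.15-fold higher, at 8.17 to 9.87 against 7.16 to 7.37. The sodium pump gene atp1a1a.4 read 8.84 to 10.50 in V1 arrays and 7.09 to 8.12 in trunk arrays, without overlap, but did not pass (1.90, SE 0.74, adjusted p = 0.0514). Its all-neuron arrays, which enter the estimate of spread, ran from 3.98 to 8.75. Another sodium pump gene, atp1a1a.2, was 4.15-fold lower. Whether pronephros cells entered the gate was not tested.

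**Figure D4:**
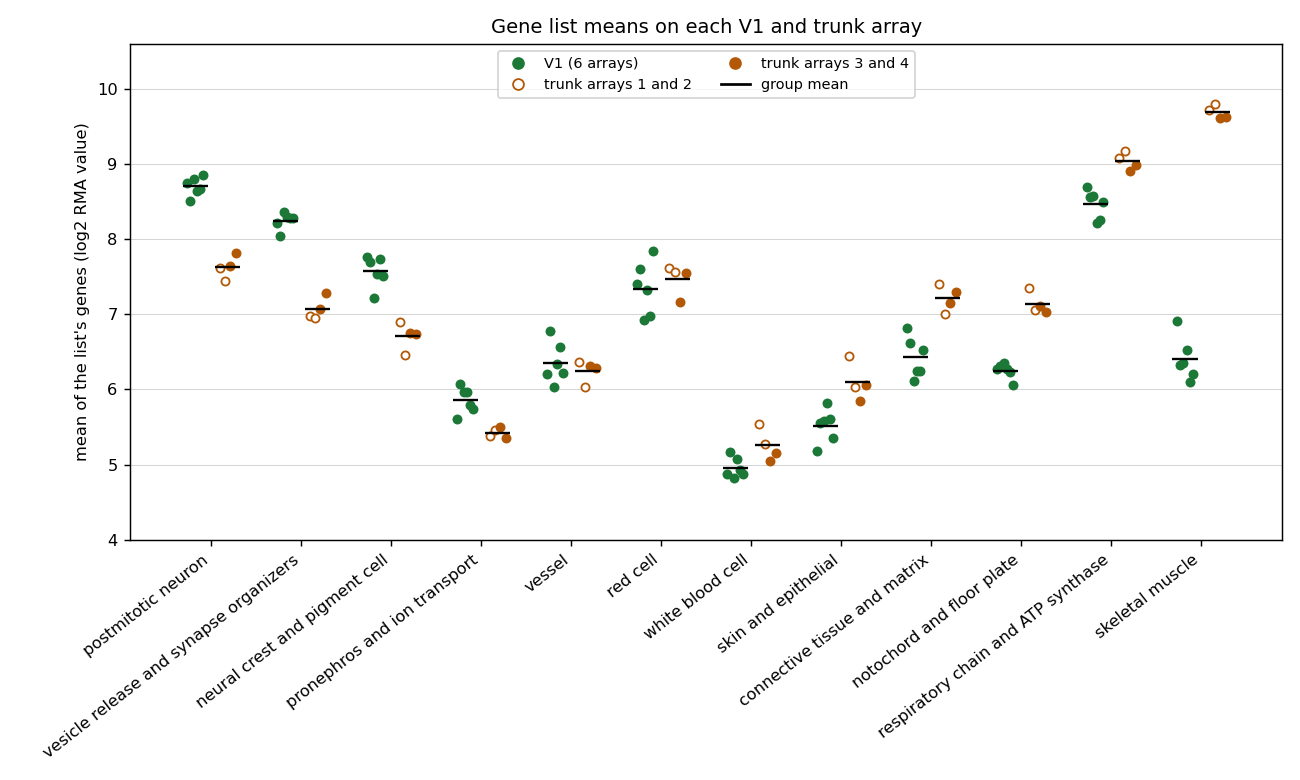
Mean RMA value of the genes of each list (vertical axis, log2 scale) on each V1 array (green) and each trunk array (orange, open for arrays 1 and 2), with black bars at the group means. V1 arrays lie above trunk arrays for the neuronal, neural crest and pronephros lists, overlap them for red cell and vessel genes, and lie below them for notochord, respiratory chain and muscle genes.

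Genes of the respiratory chain and ATP synthase were lower almost throughout. Of 85 measured genes 69 were lower and 1 higher, with a median of -0.60 (45 and 1 without trunk arrays 1 and 2, median -0.48). The list mean was 8.22 to 8.70 in V1 arrays, with a median of 8.52, against 9.08, 9.17, 8.91 and 8.99 in trunk arrays, and 8.28 to 8.51 in all-neuron arrays. sdhdb, a subunit of complex II, fell by 1.23, and ndufab1b (-1.15) and ndufa9a (-1.09), of complex I, by about as much. cox6b1 was the higher gene (1.08), at 6.76 to 7.33 in V1 arrays against 6.27, 6.36, 5.40 and 5.48 in trunk arrays. Muscle genes moved in the same direction on the same arrays, and their part in this difference was not tested.

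Most ribosomal protein genes did not pass, with 4 of 71 higher, 2 lower and a median of 0.10 (5 and 1 without trunk arrays 1 and 2). rpl12 was 1.52-fold higher, and rps2, rplp0 and rpl3 were higher by 0.46, 0.46 and 0.31 with overlapping groups. Under cyclic loess scaling the direction of this list flipped, with 1 gene higher, 32 lower and a median of -0.25, and rpl3 stood at -0.08. Under equal ribosomal protein means the calls of rps2 (adjusted p = 0.0618) and rpl3 (0.165) ended too. That setting scales each array by the mean of these same genes, so it is no separate check of them. The rpl3 call also ended with array weights (adjusted p = 0.0538), the replicate block (0.0751) and most single-array omissions. The lower genes, rps27l (-1.01) and rpl7l1 (-0.50), are a relative of a ribosomal protein gene each. The calls of rplp0 (adjusted p = 0.0673) and rpl7l1 (0.0796) ended without trunk arrays 1 and 2.

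Hox genes, which mark position along the body axis, differed by paralog group. Of 42 measured Hox genes 17 were higher and 1 lower, with a median of 0.35 (13 and 0 without trunk arrays 1 and 2). In paralog groups 1 to 8, 7 of 25 were higher, with a median of 0.21, and in groups 9 to 11, 10 of 13, with a median of 0.76. The share in groups 1 to 8 was only a little above the 23.3% of all named genes. All 5 measured genes of group 9 and all 3 of group 10 were higher, but only 2 of 5 of group 11, with a median of 0.36. Within groups 1 to 8, group 4 had 3 of 4 higher, with a median of 0.61. In groups 12 and 13, 0 of 4 were higher.

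hoxd11a read 8.43, 9.20 and 9.47 as lowest, median and highest in V1 arrays, against 7.01, 6.81, 7.59 and 7.62 in trunk arrays (3.37-fold higher, log2 difference 1.75, SE 0.21, adjusted p = 6.27e-06). hoxc11a was 3.30-fold higher, at 6.97 to 8.02 against 5.67 to 5.97, and hoxa9b 2.47-fold, at 7.20 to 8.06 against 6.09 to 6.28. For hoxd11a and hoxc11a V1 arrays 4 to 6 lay above V1 arrays 1 to 3, and another hoxc11a probe set did not pass (-0.06). The hoxa9b and hoxd11a levels in all-neuron arrays were 7.42 to 7.87 and 8.88 to 9.0. hoxc13a was lower (-0.28) at 3.95 to 4.46 against 4.33 to 4.62, a call that ended without trunk arrays 1 and 2 (-0.20, adjusted p = 0.288).

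**Figure D5:**
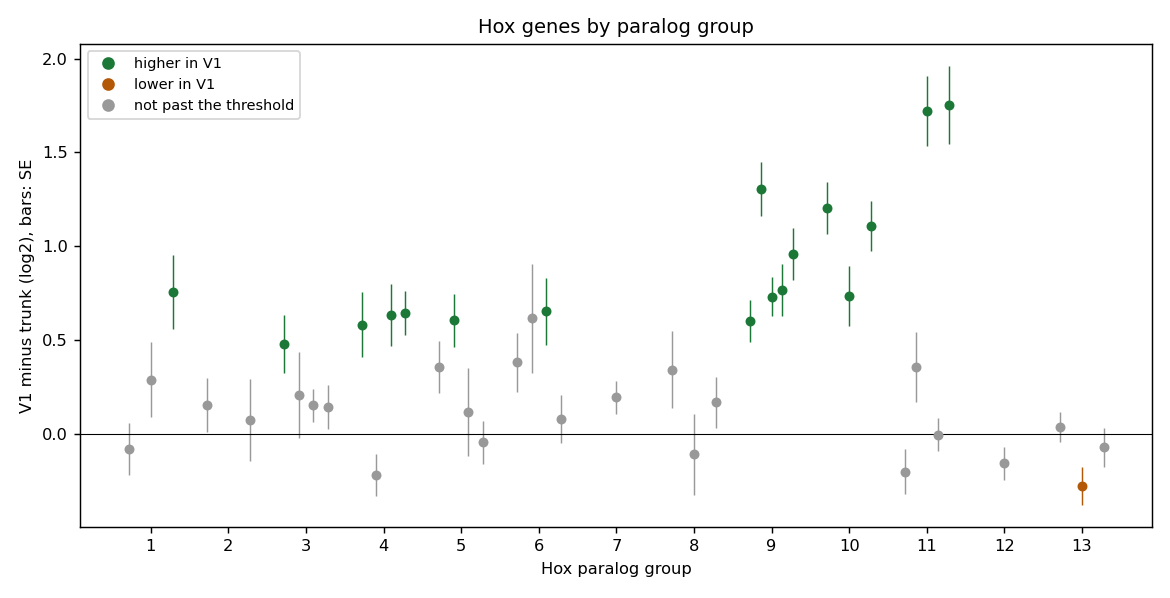
Difference of V1 minus trunk on the log2 scale (vertical axis, bars are standard errors) for each measured Hox gene, by paralog group (horizontal axis). The genes of groups 9 and 10 are all higher in V1 arrays, hoxc11a and hoxd11a of group 11 have the largest differences, and groups 12 and 13 lie near 0.

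Most signalling pathway genes did not pass the test, and more of the called ones were lower than higher. Of 80 measured genes of hedgehog, FGF, BMP and Wnt signalling 23 were lower, 7 higher and 50 did not pass. The median was -0.14 (10 lower and 4 higher, with a median of -0.10, without trunk arrays 1 and 2). The share of lower genes was above that of all named genes (20.6%), and the share of higher genes was below theirs (23.3%). wif1, a secreted Wnt inhibitor (-1.74), fgfr3, an FGF receptor (-1.59), and bmpr1ba, a BMP receptor (-1.12), were the lowest. id4, an inhibitor of helix-loop-helix factors, was 3.44-fold higher, at 9.07 to 9.60 in V1 arrays against 7.18 to 7.84 in trunk arrays. id2a was 1.95-fold higher, and spry4, an FGF feedback inhibitor, 2.04-fold, with overlapping groups and no call without those arrays (0.61, adjusted p = 0.345).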

How the data were processed

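The submitters' processing notes name RMA and Affymetrix Expression Console for the deposited table, whose values the authors left on the log2 scale as far as the values show. For both, the version is not given in the sources used here. RNA was amplified repeatedly before labelling, per the labels' protocols. Of 15617 probe sets 115 controls stayed out, which left 15502. The platform annotation pairs 10795 of them with 1 symbol, 135 with several and 4572 with none, and only the first kind is named.

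A limma 3.58.1 fit of 3 group means (R 4.3.3, 12 residual degrees of freedom) took in all 15 arrays, so that the 5 all-neuron arrays helped estimate the spread. V1 minus trunk was tested two-sided with Benjamini-Hochberg adjustment over all probe sets at 0.05. A check of the code on simulated data came first, with independent arrays and few changed probe sets. Since the real arrays share structure and many probe sets differ, it does not show how the test behaves on these data. A gene entered the 32 lists by its brightest probe set over all arrays. Lists were described by counts and medians, without a set test. The genes, lists and rule were chosen with earlier results of these data known. Named were en1b, en1a, pax2a, pax8, lhx5, hmx3a, penkb and elavl3, the 12 largest called differences each way without overlap between groups and with a mean of at least 5.52 in the higher group, up to 3 called members of each list each way, all members of counts of 5 or fewer, and cell type markers. Other members of the V1 list, ache, abat and slc4a2a were added after their values were seen. Folds are 2 to the power of the log2 difference. Alternatives were a trended robust prior, only these 2 groups in the fit, cyclic loess, equal medians, equal ribosomal protein means, a filter on dim probe sets, array weights, a replicate block, a threshold of 0.01, and leaving out each array or trunk arrays 1 and 2. Figures used matplotlib 3.10.9 in Python 3.11.15.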

Additional observations from a re-analysis of the deposited data

Results flagged for a closer look

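Single arrays lay far from the others of their group in 15 of 464 groups of values tested for the named genes and list means, and chance alone sets apart about 1 in 20 such groups. Among V1 arrays, array 3 read 11.15 for slc18a3a (others 10.66 to 10.76), 5.07 for foxn4 (4.69 to 4.82), 4.2 for ptf1a (3.63 to 3.83), 7.36 for ctsc (8.23 to 8.67) and 5.48 for sdhdb (6.05 to 6.30). Its axon guidance list mean was 5.97, beside 5.75 to 5.81. V1 array 2 read 8.05 for nxph1 (8.91 to 9.17), V1 array 4 read 7.86 for cdca7a (8.56 to 8.90) and 13.01 for rpl3 (13.35 to 13.47), and V1 array 6 read 6.49 for col2a1a (7.41 to 7.92). Among trunk arrays, array 1 read 13.42 for rpl3 (12.85 to 12.91), array 3 read 6.29 for alas2 (7.08 to 7.17) and array 4 read 6.24 for lhx1a (6.42 to 6.45). The red cell list mean was 7.16 in trunk array 3, beside 7.55 to 7.61, and the mean of excitatory and cholinergic genes was 6.99 in trunk array 4, beside 6.58 to 6.64.

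A pair of control probe sets left out of the tests carried signal in V1 arrays alone. AFFX-Dr-AF292560-1_s_at read 7.48 to 8.91 in V1 arrays, against 3.22 to 3.41 in trunk arrays (log2 difference 5.16), and 3.14 to 3.32 in all-neuron arrays. AFFX-Dr-M62653-1_at read 5.04 to 6.08 in V1 arrays, against 2.85 to 3.11 in trunk arrays (2.65). The tables used here do not annotate the transcripts that these probe sets measure. Whether they read the reporter of the V1 line or another control sequence was not tested.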

How the results depend on the processing

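The counts of 3411 higher and 2797 lower probe sets moved by over 1.5 times under few settings. Equal ribosomal protein means gave 2212 higher and 2264 lower, with a median of all probe sets of -0.10. A threshold of 0.01 left 1779 lower, a filter on dim probe sets 1775 lower beside 2978 higher, and leaving out trunk arrays 1 and 2 left 1808 lower. Leaving out each array in turn gave 2879 to 3417 higher and 2191 to 2797 lower. With the replicate number as a block there were 2944 higher and 2174 lower. Same-numbered V1 and trunk arrays did not deviate together (r from -0.13 to -0.01), so the numbers are not read as a paired design. Among named genes hspa8 (-0.0305) and rpl3 (-0.0788) reversed under cyclic loess, where neither was called. The 200 named genes include some that had no call to lose. Of the 200, 39 lost their calls without trunk arrays 1 and 2, 24 under equal ribosomal protein means and 18 under the replicate block. The cause was not tested. The 4 genes that mark the V1 group kept their calls under every alternative run. They were chosen with earlier results of these data known and differ widely between the groups, so this is no independent support. Some calls given as ended without trunk arrays 1 and 2 also ended under other settings. Those of dlb, egr4, spry4, crestin, ctsz, ptf1a, nkx2.2a and hoxc13a ended under cyclic loess too (adjusted p = 0.0603 to 0.216). So did those of dync1h1 (0.0596), fdps (0.146), rplp0 (0.576) and hspa8 (0.786). Low levels lack a detection call, and 4 trunk arrays limit what small differences can show.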

Other observations

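Of 47 immediate early and stress genes, which respond to stimulation and handling, 5 were higher and 12 lower in V1 arrays (median -0.22, and 3 and 4 with a median of 0.01 without trunk arrays 1 and 2). The share of higher genes was below that of all named genes (23.3%), and the share of lower genes a little above theirs (20.6%). hspb1, a small heat shock protein that muscle also carries, read 5.79 to 7.10 in V1 arrays, against 9.84 to 10.46 in trunk arrays (14.1-fold lower, adjusted p = 1.35e-07). egr1 was 6.08-fold lower, at 5.68, 5.03, 4.36, 3.10, 3.84 and 3.96 in V1 arrays 1 to 6, against 6.46 to 7.19 in trunk arrays, and myca 3.03-fold lower. The higher genes were the chaperone genes hsp90aa1.2 (1.87), hsp90ab1 (0.85) and hspa8 (0.34), gadd45aa (1.45) and egr4 (0.77). hsp90aa1.2 read 8.94 to 11.87 in V1 arrays, against 7.42 to 9.20 in trunk arrays, and lost its call without trunk arrays 1 and 2 (1.39, adjusted p = 0.132), as did egr4 (0.54, adjusted p = 0.298) and hspa8 (0.40, adjusted p = 0.0501).

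Of 13 sterol synthesis genes acat2 (0.71), fdps (0.43) and stard4 (0.42) were higher and fdft1 was lower (-0.82), with a median of -0.09. The share of higher genes was near that of all named genes (23.3%), and the share of lower genes was below theirs (20.6%). The fdps call ended without trunk arrays 1 and 2 (0.40, adjusted p = 0.117), which left 2 higher and 1 lower. The fdps call also ended under cyclic loess (adjusted p = 0.146), equal ribosomal protein means (0.178) and the replicate block (0.0633). The stard4 call ended under cyclic loess (adjusted p = 0.0658) and equal ribosomal protein means (0.141). Probe sets for the polyadenylated RNA added as an amplification control read higher in V1 arrays, for example AFFX-ThrX-3_at at 8.99 to 10.97 against 7.19 to 8.09 in trunk arrays and AFFX-DapX-3_at at 10.73 to 12.32 against 9.23 to 10.01. The part of RNA input or amplification in the differences reported was not tested.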
